A study of Homo sapiens with 8 samples.

Results

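The origin dependence of the JMJD3 effect is the amount by which JMJD3 changed expression in tumor-dissociated A375-LM3 cells, less the amount by which it changed expression in cultured cells. It was computed for every array probe that has 1 gene symbol and exceeded the background level on at least 1 array of each of the 4 groups. This rule admitted 14417 of the 47323 probes on the array, for 10863 of the 20046 genes named there. A positive difference means that the JMJD3 effect was more positive in tumor-dissociated cells than in culture. A375-LM3 was derived from A375, an established line of human melanoma cells. The 8 arrays fall into 4 groups of 2. They hold tumor-dissociated cells expressing JMJD3 (titled WT), tumor-dissociated cells with the vector (VEC), cultured cells expressing JMJD3, and cultured cells with the vector. Tumor-dissociated cells were taken from a primary tumor formed by A375-LM3 and kept for 3 passages, while the cultured cells had 1 day of culture. Growth in a tumor, dissociation and time in culture therefore cannot be told apart. The sources used here do not give the host of the tumors, the promoter driving JMJD3, or whether a line is 1 clone. Nor do the labels tie the arrays of a group to separate cultures or tumors. All p-values therefore measure the spread between 2 arrays of a group, which may be technical.

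JMJD3, encoded by KDM6B, removes methyl groups from lysine 27 of histone H3, a mark that Polycomb repressive complex 2 places on silenced genes. The enzyme is known for its induction by inflammatory signals in macrophages and for opening developmental genes. Which genes respond to such an enzyme can depend on which genes carry the mark and which transcription factors are active in a cell state. Comparing its effect between the 2 origins asks whether the response to JMJD3 was the same in both.

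KDM6B itself was not among the probes that met the rule. Its 1 probe measured 161.7 and 159.7 in tumor-dissociated JMJD3 cells, 148.4 and 140.6 in tumor-dissociated vector cells, 155.8 and 149.96 in cultured JMJD3 cells, and 150.3 and 144.5 in cultured vector cells. It passed the background level of 161.4 on 1 of 8 arrays. The introduced sequence may lack the stretch that the probe binds, so its level does not check the labels. Probes just inside the rule had 161.36 to 161.38 on the brighter array of their dimmest group, and those just outside had 161.34 to 161.35. The pooled replicate SD over these probes was 0.278 in tumor-dissociated JMJD3 cells, 0.278 in tumor-dissociated vector cells, 0.204 in cultured JMJD3 cells and 0.179 in cultured vector cells on the log2 scale. On the second principal component, which held 19.2% of the variance, tumor-dissociated JMJD3 replicate 1 stood at 29.8 and tumor-dissociated vector replicate 2 at -34.6, with the other 6 arrays between -6.12 and 7.65.

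The sequences shown are the 250 bases before the transcription start of THBS1, CXCL8 and SPP1, from RefSeq on GRCh38.p14. They are given because these 3 genes stand for the 3 patterns found, an effect of JMJD3 in tumor-dissociated cells, an effect in culture, and effects of opposite sign. All 3 are on the plus strand, at chr15:39580829-39581078, chr4:73740319-73740568 and chr4:87975464-87975713. Capitals mark matches, on either strand, to AP-1 (TGANTCA), NF-kB (GGNNTTTCC), TEAD (GGAATG) and the TATA box (TATAAA).
THBS1: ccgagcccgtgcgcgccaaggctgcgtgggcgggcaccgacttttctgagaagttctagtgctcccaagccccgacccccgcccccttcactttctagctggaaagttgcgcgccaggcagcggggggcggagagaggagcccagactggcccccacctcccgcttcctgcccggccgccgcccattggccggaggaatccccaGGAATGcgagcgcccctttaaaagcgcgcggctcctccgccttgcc
CXCL8: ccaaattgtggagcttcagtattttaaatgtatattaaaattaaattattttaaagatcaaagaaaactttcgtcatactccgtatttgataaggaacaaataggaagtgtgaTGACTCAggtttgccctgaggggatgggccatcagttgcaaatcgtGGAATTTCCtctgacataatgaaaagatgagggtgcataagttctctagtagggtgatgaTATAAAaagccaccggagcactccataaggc
SPP1: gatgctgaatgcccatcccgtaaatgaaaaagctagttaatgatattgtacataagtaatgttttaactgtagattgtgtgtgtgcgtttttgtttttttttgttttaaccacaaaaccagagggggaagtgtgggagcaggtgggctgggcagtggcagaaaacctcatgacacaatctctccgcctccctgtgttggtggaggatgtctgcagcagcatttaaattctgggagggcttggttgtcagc
The THBS1 window holds 1 TEAD match, 46 bases before the start, and no other motif searched. The CXCL8 window holds an AP-1 match 137 bases before the start, an NF-kB match 91 bases before it and a TATA match 31 bases before it. None of the 4 motifs was found in the SPP1 window. Of 35116 windows of this length, 6.57% held the AP-1 letters, 5.48% the NF-kB letters, 11.9% the TEAD letters and 10.7% the TATA letters. A match describes the sequence and shows no binding.

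The JMJD3 effect differed between origins for 10 probes of 9 genes. It was more positive in tumor-dissociated cells for THBS1, SORBS2, OLFML2A and ZBTB38. It was more negative there for SPP1 (by 2 probes), UTS2, PBX3, VAV3 and CXCL8. These probes had a Benjamini-Hochberg adjusted p under 0.05 in limma, which was fitted to all 8 arrays and adjusted over 16729 tested probes. Over all tested probes 0.114% were called, 0.0239% as more positive and 0.0897% as more negative, so the 10 of 14417, or 0.0694%, do not exceed the background. The other 9 of the 19 calls were probes that did not meet the rule, such as TSPAN8, RCAN2 and MMP10, because at least 1 group was below background on both arrays. An unadjusted p under 0.05 was found for 410 of the 14417 probes as more positive, where 3.2% of all tested probes were, and for 424 as more negative, where 3.59% were. Together they made 5.78%, against 6.79% of all tested probes. Uniform p-values would give 5%. The median difference over the 14417 probes was 0.0018 on the log2 scale, with quartiles of -0.19 and 0.20. A typical probe had an unadjusted 95% interval of 0.600 to either side of its difference. With 2 arrays per group, smaller differences of effect were mostly not detectable, and larger ones were mostly not called. The difference was above 1 for 176 probes and below -1 for 129, against 4 and 6 called.

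THBS1 encodes thrombospondin 1, a matrix glycoprotein that restrains angiogenesis and activates latent TGF-beta. Its intensity was 3119 and 3055 in tumor-dissociated JMJD3 cells, against 647 and 736 in tumor-dissociated vector cells. In culture it was 5295 and 6113 in JMJD3 cells, against 5816 and 6506 in vector cells. Both tumor-dissociated vector arrays were far below the other 6, and in culture the ranges of JMJD3 and vector cells overlapped. THBS1 rose by 2.34 ± 0.17 on the log2 scale with JMJD3 in tumor-dissociated cells (SE, 2 arrays per group, limma adjusted p = 0.000474), with a difference of -0.11 ± 0.17 in culture (adjusted p = 1.00). The effects differed by 2.46 ± 0.24 (95% interval 1.93 to 2.99, limma adjusted p = 0.00922).

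SORBS2, an adaptor of the actin cytoskeleton and cell junctions, measured 375.5 and 380 in tumor-dissociated JMJD3 cells and 164 and 169 in tumor-dissociated vector cells. The cultured arrays gave 525 and 533 in JMJD3 cells and 420 and 556 in vector cells. The vector level in tumor-dissociated cells was barely above background, and the cultured groups overlapped. The log2 effect of JMJD3 was 2.10 ± 0.19 in tumor-dissociated cells and 0.17 ± 0.19 in culture, a difference of 1.93 ± 0.27 (limma adjusted p = 0.0391).

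OLFML2A, which encodes a secreted olfactomedin-domain protein, stood at 491 and 504 in tumor-dissociated JMJD3 cells and at 250 and 210 in tumor-dissociated vector cells. Its cultured values were 686 and 647 with JMJD3 and 732 and 789 with vector. The origins thus had opposite orders, although only the tumor-dissociated effect, 1.65 ± 0.18, passed the test (adjusted p = 0.00601), and the cultured one was -0.22 ± 0.18. ZBTB38, a zinc finger protein that binds methylated DNA, measured 273 and 264 in tumor-dissociated JMJD3 cells against 182 and 180 in vector cells of that origin. In culture its values were 270 and 253 with JMJD3 and 320 and 330 with vector. Here too the order of JMJD3 and vector cells turned round, without overlap in either origin. The log2 effect of JMJD3 on ZBTB38 was 1.09 ± 0.15 in tumor-dissociated cells (limma adjusted p = 0.0162). In culture it was -0.49 ± 0.15 and did not pass (adjusted p = 0.832). The difference of effects was 1.87 ± 0.26 for OLFML2A and 1.57 ± 0.22 for ZBTB38 (limma adjusted p = 0.0391 for each).

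SPP1 encodes osteopontin, a secreted phosphoprotein that binds integrins and CD44. With the probe ILMN_2374449 it measured 1254 and 1621 in tumor-dissociated JMJD3 cells, against 3562 and 5912 in tumor-dissociated vector cells. Cultured cells had 606 and 576 with JMJD3, against 236 and 219 with vector. JMJD3 cells were the lower group among tumor-dissociated cells and the higher group in culture, without overlap in either. The log2 effect of JMJD3 was -1.76 ± 0.25 in tumor-dissociated cells (limma adjusted p = 0.0162) and 1.96 ± 0.25 in culture (adjusted p = 0.0325). The difference of effects was -3.72 ± 0.35 (95% interval -4.51 to -2.94, adjusted p = 0.00922). The second SPP1 probe, ILMN_1651354, gave -3.27 ± 0.42 (adjusted p = 0.0295), although neither of its 2 terms, -1.54 and 1.73, passed by itself.

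UTS2 encodes urotensin 2, a peptide that constricts vessels. Its probe measured 336 and 788 in tumor-dissociated JMJD3 cells and 7594 and 7567 in tumor-dissociated vector cells. In cultured cells it was close to background in both kinds, at 179 and 205 with JMJD3 and 180 and 172 with vector. The tumor-dissociated vector arrays were the only ones with a high signal, and the JMJD3 arrays of that origin lay between them and the cultured level. The log2 effect of JMJD3 was -4.22 ± 0.40 in tumor-dissociated cells and 0.27 ± 0.40 in culture, and the difference was -4.49 ± 0.56 (95% interval -5.76 to -3.23, limma adjusted p = 0.0263).

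PBX3, a homeodomain protein that binds DNA together with HOX proteins, was at 983 and 1030 in tumor-dissociated JMJD3 cells and at 2753 and 3011 in tumor-dissociated vector cells. Cultured JMJD3 cells had 1390 and 1427, and cultured vector cells 1261 and 1281. Again the tumor-dissociated vector cells stood apart, here by higher levels. The difference of effects was -1.78 ± 0.21 (limma adjusted p = 0.0263), from -1.62 in tumor-dissociated cells and 0.16 in culture. VAV3 measured 355 and 422 in tumor-dissociated JMJD3 cells against 1064 and 995 in vector cells of that origin. In culture it had 204 and 181 with JMJD3 and 156 and 169 with vector, 1 of the 2 vector values being below background. Its effects were -1.70 and 0.58, with a difference of -2.28 ± 0.29 (limma adjusted p = 0.0263). For both PBX3 and VAV3 only the tumor-dissociated effect passed the test.

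CXCL8, the neutrophil-attracting chemokine interleukin 8, was the 1 called gene whose JMJD3 effect passed the test in culture and not in tumor-dissociated cells. In tumor-dissociated cells its intensity was 2786 and 4058 with JMJD3 and 2802 and 3260 with vector, and the groups overlapped. In culture it was 2577 and 2558 with JMJD3, against 561 and 475 with vector. Cultured vector cells were thus the low group, and the other 6 arrays lay between 2558 and 4058. The log2 effect was 0.16 ± 0.21 in tumor-dissociated cells (limma adjusted p = 0.831) and 2.58 ± 0.21 in culture (adjusted p = 0.00245). The difference of effects was -2.42 ± 0.30 (95% interval -3.09 to -1.74, adjusted p = 0.0263).

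**Figure D1:**
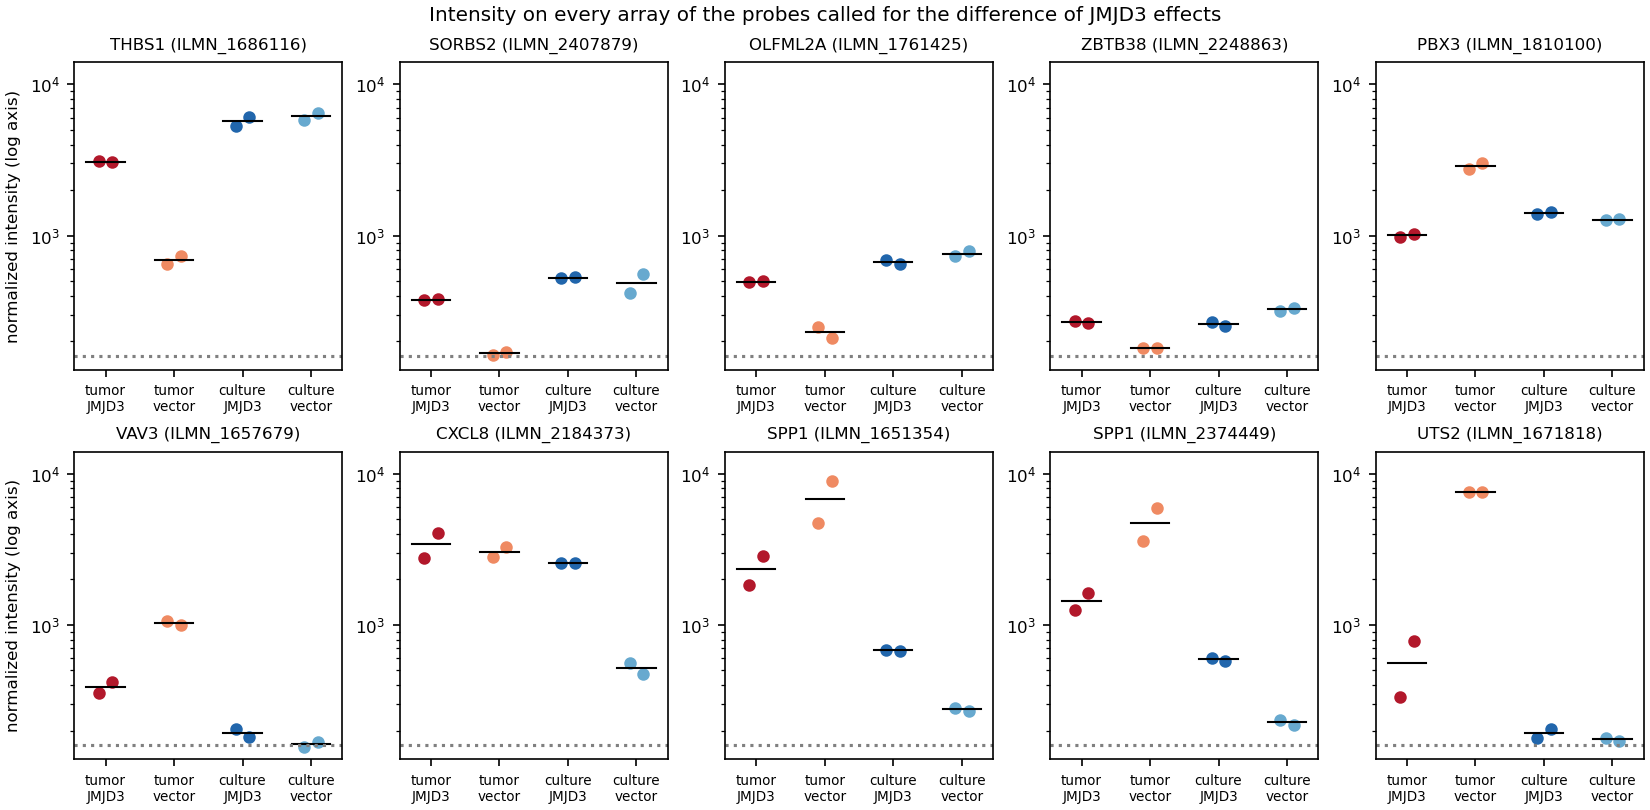
Normalized intensity (log axis) on each of the 8 arrays for the 10 called probes, 1 panel per probe, with 2 points and their mean (line) for each group and the background level of 161.4 dotted. Tumor-dissociated vector cells stand apart, as the highest or lowest group, in every panel but that of CXCL8, where cultured vector cells do. The order of JMJD3 and vector turns round between origins, without overlap, for SPP1, OLFML2A, ZBTB38, PBX3 and VAV3. Both effects passed the test only for the SPP1 probe ILMN_2374449. The share of all probes with such an order was not computed.

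Of the 10 called probes, 8 were also called for JMJD3 against vector in tumor-dissociated cells, where 0.723% of tested probes were, and 2 in cultured cells, where 0.0717% were. These terms make up the difference and are no independent support. For all 10 probes the 4 pairwise JMJD3-minus-vector differences of tumor-dissociated arrays lay wholly above or wholly below the 4 of cultured arrays. Among all tested probes this held for 9.16% in the more positive and 9.44% in the more negative direction. The 10 probes were chosen by this same difference on the same arrays, so their separation is no independent support either. The JMJD3 effects of the 2 origins had opposite signs for 45.4% of the 14417 probes. Among those with an unadjusted p under 0.05 in limma, 81.2% had opposite signs. Choosing probes by the difference of effects favors opposite signs, so this share is given as a description. A larger JMJD3 difference in tumor-dissociated cells than in culture, in absolute size, was seen for 62.0% of the 14417 probes. The SD of the effect over these probes was 0.345 in tumor-dissociated cells and 0.235 in culture. The replicate spread was also wider in tumor-dissociated cells, and its part in this contrast was not tested.

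**Figure D2:**
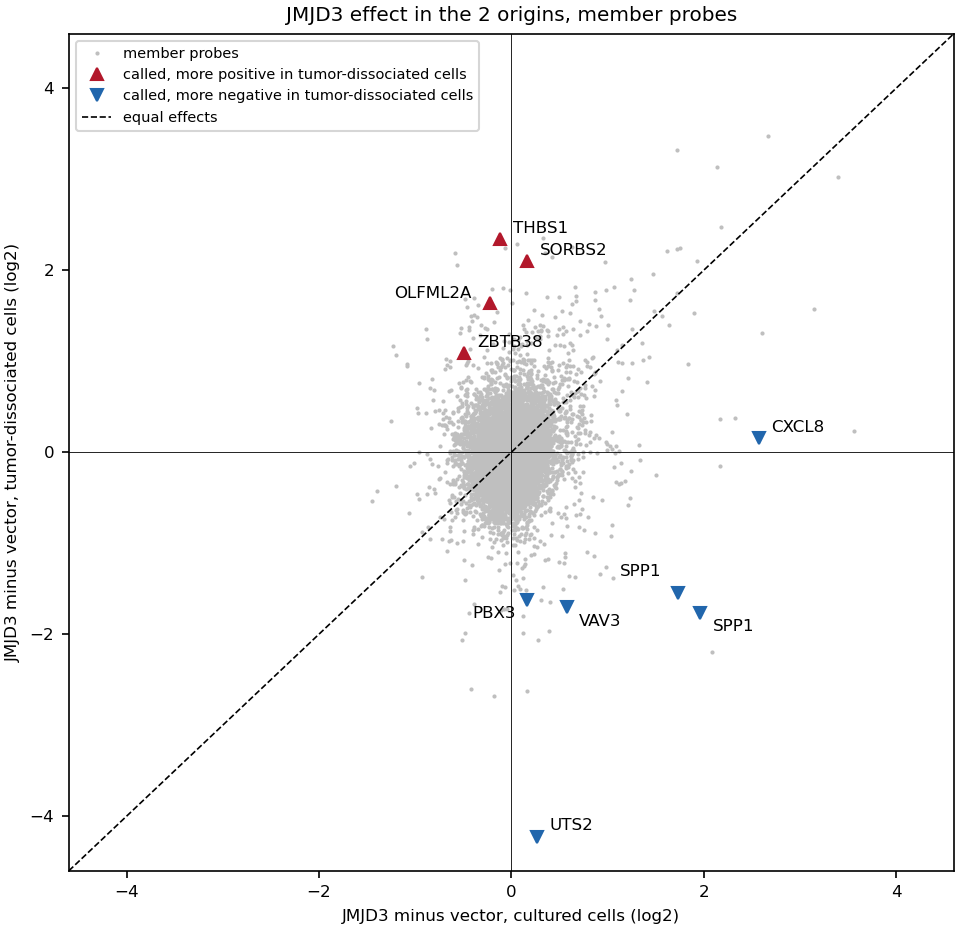
JMJD3 minus vector on the log2 scale in tumor-dissociated cells (vertical) against cultured cells (horizontal) for the 14417 probes (grey), with the 4 probes called as more positive (red) and the 6 called as more negative (blue) in tumor-dissociated cells. The called probes lie farthest from the dashed line of equal effects relative to their error. SPP1 lies well away from zero on both axes with opposite signs, CXCL8 near zero on the vertical axis, and THBS1 and UTS2 near zero on the horizontal one.

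The same 4 means can be read as the difference between origins in each cell kind. In absolute size, JMJD3 cells differed less between tumor-dissociated and cultured states than vector cells did for all 10 called probes. For SPP1 (ILMN_2374449) the log2 difference between origins was 1.44 in JMJD3 cells and 5.16 in vector cells, and for UTS2 it was 2.18 and 6.67. THBS1 was lower in tumor-dissociated cells by a log2 difference of -0.90 in JMJD3 cells and -3.36 in vector cells. CXCL8 had 0.40 in JMJD3 cells and 2.82 in vector cells. The direction was not always shared. PBX3 had -0.53 in JMJD3 cells and 1.25 in vector cells, and ZBTB38 had 0.07 and -1.51. The smaller difference was in JMJD3 cells for 62.7% of the 834 probes with an unadjusted p under 0.05, and for 50.1% of all 14417. Since each probe's difference of effects is built from these same values, the shares are given as a description.

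The signs of the differences held when single arrays were left out, but the calls did not. In the 8 fits that each left out 1 array, the 10 probes kept the sign of their difference, and THBS1 ranged from 2.35 to 2.57 and UTS2 from -5.27 to -3.72 on the log2 scale. The number of called probes was 0 without any 1 of the 4 cultured arrays, for each of which between 503 and 829 of the 14417 probes had an unadjusted p under 0.05 in limma. Leaving out tumor-dissociated JMJD3 replicate 1 gave 10 calls, 5 of them among the 10 above, and leaving out its replicate 2 gave 46. Of the tumor-dissociated vector arrays, 64 probes were called without the first and 2 without the second. The 2 probes called without tumor-dissociated vector replicate 2 were those of THBS1 and SPP1 (ILMN_2374449). Without background correction 3 probes lost their call. ZBTB38 had a difference of 0.89 and SORBS2 of 1.05 (limma adjusted p = 0.107 and 0.196), and the SPP1 probe ILMN_1651354 kept its sign (adjusted p = 0.107).

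**Figure D3:**
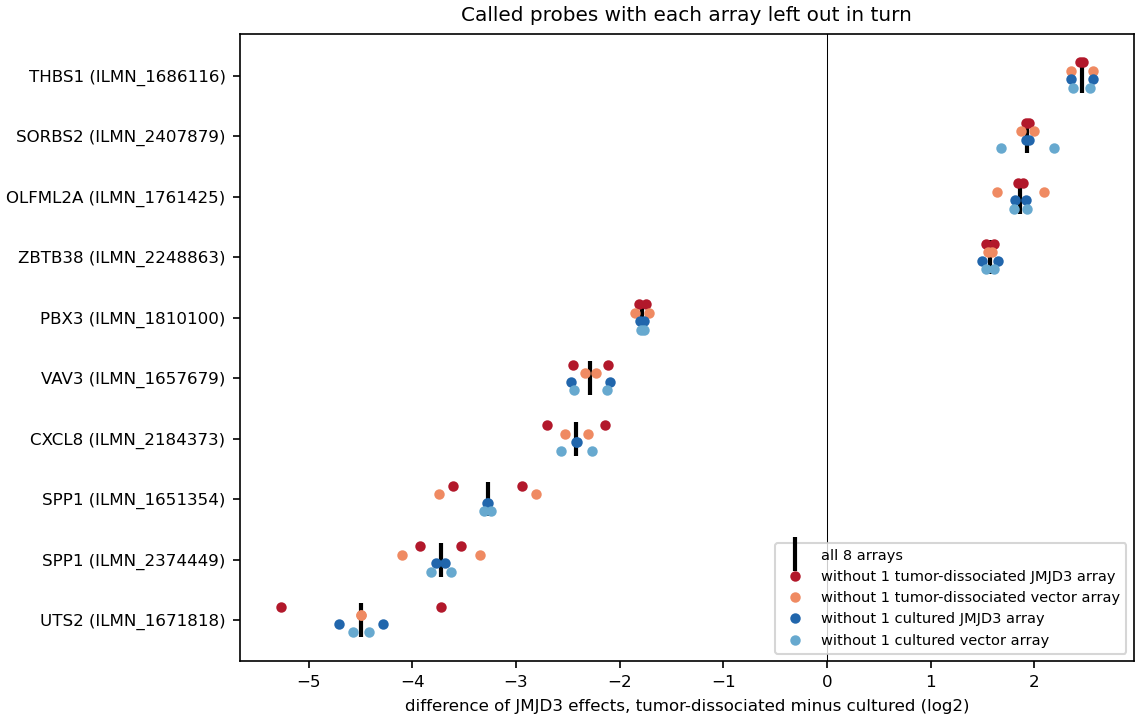
Difference of JMJD3 effects on the log2 scale for the 10 called probes with all 8 arrays (black bar) and with 1 array left out (coloured points, by the group of the array). No point crosses zero, and UTS2 moves most, between -5.27 and -3.72, when a tumor-dissociated JMJD3 array is left out.

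Several called genes had further probes. The second CXCL8 probe that met the rule gave -1.96 ± 0.49 (limma adjusted p = 0.342). It measured 1116 and 2585 in tumor-dissociated JMJD3 cells, 1137 and 1548 in tumor-dissociated vector cells, 1184 and 1151 in cultured JMJD3 cells and 311 and 318 in cultured vector cells. The second SORBS2 probe gave 2.02 ± 0.39 (adjusted p = 0.165). A UTS2 probe outside the rule, below background on both cultured vector arrays, had -4.37 ± 0.50 and was called (limma adjusted p = 0.0258). A dimmer VAV3 probe outside the rule had -1.08 ± 0.29 (adjusted p = 0.370), and a further UTS2 probe outside it -0.71 (adjusted p = 0.782). All of these had the sign of the called probe of their gene, and their terms are measured on the same RNA.

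The next genes in order of p did not pass, and their values are given without a call. On the more positive side they were CD96 (2.18 ± 0.37), LRIG3 (1.28 ± 0.22), CD109 (1.39 ± 0.25), TGFB2 (1.32 ± 0.25), TINAGL1 (1.54 ± 0.30), ITGB5 (1.12 ± 0.22), RNF182 (1.08 ± 0.23) and WDR72 (1.07 ± 0.23), with limma adjusted p from 0.0908 to 0.230. TGFB2, a TGF-beta family cytokine, measured 280 and 297 in tumor-dissociated JMJD3 cells against 165 and 166 in tumor-dissociated vector cells. In culture it had 180 and 162 with JMJD3 against 158 and 163 with vector, all near background. ITGB5, an integrin subunit of vitronectin receptors, had 837 and 888 against 536 and 479 in tumor-dissociated cells, JMJD3 first, and 760 and 718 against 819 and 855 in culture. Opposite signs of the 2 terms were found for CD96, LRIG3, CD109, TINAGL1 and ITGB5, with CD109 at 0.57 in tumor-dissociated cells and -0.81 in culture. They are common among the probes with an unadjusted p under 0.05 in limma, 81.2% of which had them, since selection by the difference favors them.

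On the more negative side they were LY96 (-1.66 ± 0.25), TAGLN (-1.71 ± 0.26), PKIA (-2.24 ± 0.35), RDH10 (-2.04 ± 0.33), TFPI (-1.45 ± 0.24), CRABP2 (-2.79 ± 0.46) and NFKBIZ (-1.38 ± 0.23), with limma adjusted p from 0.0571 to 0.0908. RDH10 and CRABP2 act in 1 pathway, the first making retinaldehyde from retinol and the second carrying retinoic acid. CRABP2 measured 323 and 563 in tumor-dissociated JMJD3 cells against 1928 and 2225 in vector cells of that origin. Its cultured values were 203 and 222 with JMJD3 against 182 and 223 with vector. RDH10 had 704 and 1113 in tumor-dissociated JMJD3 cells against 2401 and 2686 in vector cells, and 609 and 655 against 509 and 498 in culture. In both genes tumor-dissociated vector cells were highest, as for UTS2 and PBX3. LY96, the co-receptor of TLR4 for bacterial lipopolysaccharide, showed the same order, with 340 and 308 in tumor-dissociated JMJD3 cells against 604 and 557 in vector cells. Its cultured values were 232 and 233 with JMJD3 against 202 and 181 with vector. NFKBIZ, a nuclear regulator of NF-kB, had 583 and 660 against 1281 and 1395 in tumor-dissociated cells, JMJD3 before vector, and 605 to 709 on the cultured arrays. TFPI, the inhibitor of tissue factor, resembled CXCL8 instead. It had 536 and 599 against 616 and 656 in tumor-dissociated cells, and 312 and 352 against 196 and 202 in culture, JMJD3 before vector in both.

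Gene lists were described by their counts and medians, beside a median of 0.0018 and 4 and 6 calls over all 14417 probes. At an unadjusted p under 0.05 in limma, 410 of the 14417 were positive and 424 negative, together 5.78%. Among 17 probes of 14 NF-kB target genes, 1 was called, CXCL8, and the median was 0.04. Of the 17, 2 were positive and 4 negative at an unadjusted p under 0.05 in limma. NFKBIZ and the feedback regulator TNFAIP3 (-0.75 ± 0.29) were also negative, while RELB (0.78 ± 0.30) was positive, none of the 3 called. The 40 probes of 30 collagen and matrix glycoprotein genes held 4 calls, THBS1 and OLFML2A as more positive and both SPP1 probes as more negative, with a median of 0.19. Their spread was wide, with quartiles of -0.31 and 0.79. At an unadjusted p under 0.05 in limma, 9 of the 40 were positive and 5 negative. The basement membrane collagens COL4A1 (1.62 ± 0.40) and COL4A2 (1.07 ± 0.32) and both tenascin C (TNC) probes (1.61 and 1.36) were positive without passing. A further basement membrane collagen, COL4A5, was at -0.81 ± 0.41. COL8A1 had -2.35 and -1.93 by its 2 probes, also without passing.

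Secreted angiogenic and growth factors held 1 call, UTS2, among 26 probes, with a median of 0.05. At an unadjusted p under 0.05 in limma, 3 of these probes were positive and 5 negative. PDGFC (-1.41 ± 0.29), PDGFD (-1.45 ± 0.36) and STC1 (-1.57 ± 0.46) were negative without passing, and TGFA was positive by both probes (1.79 and 1.38). YAP/TEAD targets held 1 call among 26 probes, THBS1, and a median of -0.02. CCN1 had 1.11 ± 0.46, CCN2 0.74 and 0.44 by its 2 probes, and ANKRD1 0.60, none of them called. At an unadjusted p under 0.05 the list had 3 positive probes, of THBS1, TGFB2 and CCN1, and 1 negative, of DLC1 (-0.83 ± 0.32). Matrix metalloproteinases and inhibitors had 0 calls in limma among 14 probes, with 2 positive and 1 negative at an unadjusted p under 0.05. Their median of 0.21 was 0.04 without tumor-dissociated JMJD3 replicate 1 and 0.04 without tumor-dissociated vector replicate 2. The collagenase MMP1 showed the largest value there, -3.33 ± 0.73 (limma adjusted p = 0.252), with 2617 and 731 in tumor-dissociated JMJD3 cells, 1098 and 1248 in tumor-dissociated vector cells, 741 and 1208 in cultured JMJD3 cells and 176 and 171 in cultured vector cells. Cultured vector cells were the low group for MMP1, as for CXCL8, but the tumor-dissociated JMJD3 arrays were far apart.

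Adhesion receptors and cadherins had a median of 0.47 over 26 probes with 0 calls. All 3 ITGB5 probes (1.12, 0.84 and 0.74), ITGA3 (0.82) and both ITGA6 probes were among the 6 with an unadjusted p under 0.05 on the positive side, and PCDH7 and ALCAM were the 2 on the negative side. ITGB3, which encodes integrin beta-3, had the largest value there, 2.12 ± 1.11. It was 0.71 without tumor-dissociated vector replicate 2, which measured 170 against 579 in replicate 1, and 3.53 without replicate 1. MAPK output genes had a median of 0.39 over 33 probes and 0 calls, with 6 positive and 0 negative at an unadjusted p under 0.05. IER3 stood at 1.43 ± 0.34 and the feedback inhibitor SPRY4 at 1.57 ± 0.59, which was 0.98 without tumor-dissociated vector replicate 2. Notch and calcineurin genes had a median of 0.39 over 18 probes, with the Notch-responsive repressor HEY2 at 1.63 ± 0.52 and 0 calls. HEY2 was the 1 probe of that list with an unadjusted p under 0.05, and was 1.05 without tumor-dissociated vector replicate 2. Hypoxia and glycolysis genes had 0.22 over 40 probes, with P4HA2, a collagen prolyl hydroxylase, at 1.02 ± 0.29 and ANGPTL4 at 1.16 ± 0.37 by 1 probe and 0.10 ± 0.24 by the other. This list had 0 calls and 4 positive probes at an unadjusted p under 0.05. With 1 array left out these medians stayed positive, from 0.34 to 0.54 for adhesion genes, 0.26 to 0.43 for MAPK output, 0.24 to 0.54 for Notch and calcineurin genes and 0.16 to 0.27 for hypoxia genes. The lowest came without tumor-dissociated vector replicate 1 for MAPK output and without tumor-dissociated JMJD3 replicate 2 for Notch and calcineurin genes.

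HLA class II genes had the most positive median, 1.23 over 17 probes of 12 genes, with 0 called and 0 at an unadjusted p under 0.05 in limma. That median rested on 1 array. CD74, the class II invariant chain, measured 1954 and 1890 in tumor-dissociated JMJD3 cells and 2087 and 262 in tumor-dissociated vector cells. In culture CD74 had 3612 and 2999 with JMJD3 and 4333 and 4234.5 with vector. Only tumor-dissociated vector replicate 2 was low, and without it the median was -0.04, against 2.42 without replicate 1. The same array was low for SOX10, the neural crest and melanocyte transcription factor, at 231, with the other 3 tumor-dissociated arrays at 1188 to 2184. HLA class I and peptide loading genes had a median of 0.26 over 19 probes with 0 called and 0 at an unadjusted p under 0.05, led by HLA-B at 1.18 ± 0.56. Without that array the median was 0.09 and HLA-B 0.45, and without tumor-dissociated JMJD3 replicate 1 the median was 0.15. HLA-B was 1.92 without tumor-dissociated vector replicate 1.

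Mitosis genes had a median of -0.33 over 44 probes of all 32 listed genes, with 0 called and 6 negative at an unadjusted p under 0.05 in limma. CENPE, a kinetochore motor, had -1.68 ± 0.30 and -1.66 ± 0.32 by its 2 probes (limma adjusted p = 0.124 and 0.161). It measured 269 and 357 in tumor-dissociated JMJD3 cells, 730 and 835 in tumor-dissociated vector cells, and 741 to 823 on the cultured arrays. Without tumor-dissociated JMJD3 replicate 1 the list median was -0.09, and -0.60 without replicate 2. It was 0.07 without tumor-dissociated JMJD3 replicate 1 and vector replicate 2 together. DNA replication genes, by comparison, had a median of -0.03 over 41 probes with 0 called and 1 at an unadjusted p under 0.05. RFC3, a clamp loader subunit, had the largest difference, -0.62 ± 0.51, by 1 probe, and 0.13 and 0.0096 by its others. That value ran from -1.11 without tumor-dissociated JMJD3 replicate 2 to -0.13 without replicate 1, and leaving out tumor-dissociated vector replicate 2 or either cultured JMJD3 array also moved it by over 1.5 times.

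Regulators of chromatin, HOX genes, the BMP and TGF-beta, interferon, unfolded protein, lipid and p53 lists, and the lists of melanoma states had medians between -0.10 and 0.17, 0 calls in limma, and at most 3 probes in either direction at an unadjusted p under 0.05. Polycomb proteins and histone lysine demethylases, the enzymes of the mark that JMJD3 removes among them, had 0 calls over 38 probes and a median of 0.05, led by ASXL1 at 0.54 ± 0.22. HOX genes had a median of -0.10 over 24 probes and 0 calls, with HOXA2 at -0.86 ± 0.31, and -0.56 without cultured JMJD3 replicate 2. BMP and TGF-beta genes had 0.04 over 23 probes and 0 calls, with BAMBI, a decoy receptor, at 1.38 ± 0.53. Leaving out tumor-dissociated vector replicate 2, which measured 856, gave 0.67 for BAMBI, and leaving out replicate 1, which measured 2112, gave 2.08. Interferon-stimulated genes had -0.02 over 39 probes and 0 calls, with IFIT1 at -0.997 ± 0.48. IFIT1 ran from -1.53 without cultured vector replicate 1 to -0.46 without replicate 2, and was also smaller by over 1.5 times without cultured JMJD3 replicate 1. Genes of the invasive melanoma state had 0.09 over 23 probes, and unfolded protein and ATF4 genes 0.17 over 31, led by the cystine transporter SLC7A11 at 1.11 ± 0.32. Cholesterol and fatty acid synthesis had 0.08 over 33 probes, led by INSIG1 at 0.73 ± 0.33 (0.097 ± 0.54 by its second probe, and 0.43 for the first without cultured JMJD3 replicate 2). The p53 targets and CDK inhibitors had -0.02 over 27, led by FAS at 0.67 ± 0.28. Melanocyte lineage genes had a median of 0.06 over 14 probes, led by SOX10 at 1.996 ± 1.22, a value of 0.24 when the low vector array was left out.

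**Figure D4:**
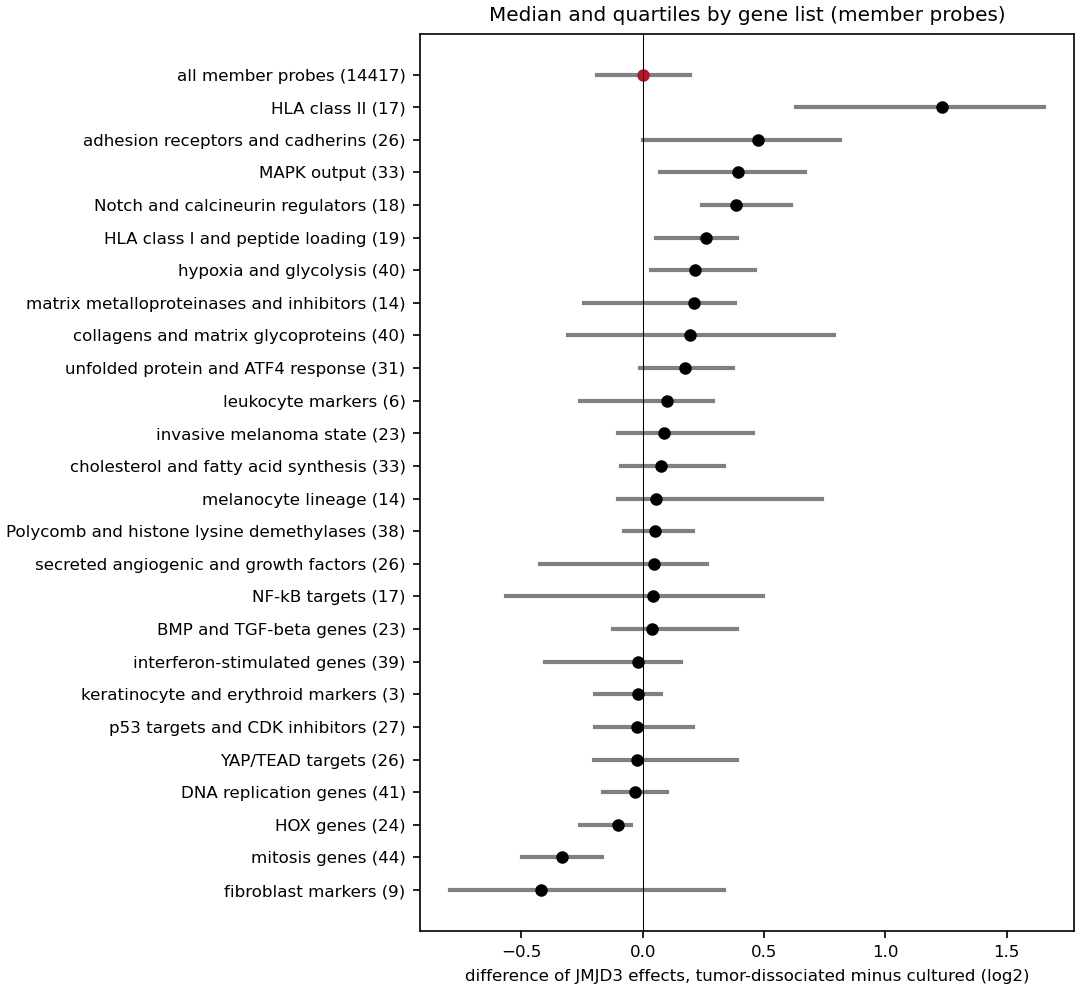
Median (point) and quartiles (bar) of the difference of JMJD3 effects on the log2 scale for the probes of each gene list, with the number of probes in parentheses and all 14417 probes at the top in red. HLA class II genes lie highest at 1.23, a value that rests on 1 array, and fibroblast markers lowest at -0.42 over 9 probes.

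Markers of cell types were checked with the brightest probe of each gene, whether or not it met the rule. Of 25 measured melanocyte lineage genes, 11 to 14 were above background on each array. SOX10 and MITF were above it on 8 of 8 arrays, while the melanocyte genes TYR, MLANA and TRPM1 were above it on 0. Their summed intensity was 9765 to 11964 in tumor-dissociated JMJD3 cells, 9273 to 10660 in tumor-dissociated vector cells, 10872 to 11069 in cultured JMJD3 cells and 10534 to 11483 in cultured vector cells. Fibroblast markers were above background for 11 and 12 of 13 genes in tumor-dissociated JMJD3 cells, 12 and 12 in tumor-dissociated vector cells, 7 and 8 in cultured JMJD3 cells and 7 and 7 in cultured vector cells. Their summed intensity was 29095 to 35831 in tumor-dissociated JMJD3 cells, 22802 to 28633 in tumor-dissociated vector cells, 19793 to 20896 in cultured JMJD3 cells and 16884 to 17017 in cultured vector cells. S100A4, which melanoma cells also express, gave most of it. THY1 was above background on 0 arrays. The markers did not share an order within tumor-dissociated cells. COL3A1 measured 225 and 215 in tumor-dissociated JMJD3 cells, 364 and 491 in tumor-dissociated vector cells, and 136 to 157 in culture. PDGFRB, by contrast, had 2000 and 792 in tumor-dissociated JMJD3 cells, 556 and 601 in tumor-dissociated vector cells, and 208 to 301 in culture. ACTA2 had 2403 and 1300 in tumor-dissociated JMJD3 cells, 1056 and 875 in tumor-dissociated vector cells, and 368 to 574 in culture. Both were highest on tumor-dissociated JMJD3 replicate 1, which stands apart on the second principal component. Their part in the differences above was not tested, and in bulk RNA fewer cells of a type and less RNA per cell cannot be told apart. The 9 fibroblast marker probes that met the rule had a median of -0.42 with 0 called, led by TAGLN, and 0.03 without tumor-dissociated JMJD3 replicate 2. PTPRC, which marks leukocytes, and CDH5 and VWF, which mark endothelium, were above background on 0 of 8 arrays. The listed leukocyte markers CD68, AIF1 and CD14 and the endothelial marker ENG were above it on 8 of 8. Of 12 measured leukocyte genes 3 to 5 were above background on each array, and of 11 endothelial genes 1 or 2. CSF1R, a macrophage receptor, measured 558 on tumor-dissociated JMJD3 replicate 1 and 140 to 183 on the other 7 arrays. PECAM1, an endothelial adhesion molecule, was above background only on the 2 tumor-dissociated JMJD3 arrays, at 180 and 175, against 145 and 149 in tumor-dissociated vector cells and 137 to 145 in culture. The 6 leukocyte marker probes that met the rule had a median of 0.10, led by LYZ at 0.60 ± 0.51, and the 1 endothelial probe, of ENG, had 0.32 ± 0.23. Leukocyte markers summed to 3073 to 3870 and endothelial markers to 1940.6 to 2269 over the 8 arrays. Of the keratinocyte and erythroid markers KRT5 and HBB were above background on 0 arrays and the summed level was 4740 to 6887. KRT10 was above background on 8 of 8 arrays, and 2 to 9 of the 15 measured genes were on each array. FLG, or filaggrin, was at 131 to 146 in tumor-dissociated cells and at 288 to 494 in cultured cells. KRT14 was at 134 to 165 in tumor-dissociated cells and at 185 to 238 in cultured cells. SPRR2D had a difference of -0.37 ± 0.64. SPRR2D, a cornified envelope protein, measured 610 and 501 in tumor-dissociated JMJD3 cells against 206 and 132 in vector cells of that origin. In culture it had 1097 and 1264 with JMJD3 against 198 and 211 with vector, so its JMJD3 effect passed in both origins (limma adjusted p = 0.0197 and 0.0405).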

How the data were processed

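RNA of 8 samples was hybridised to Illumina HumanHT-12 V4.0 BeadChips, 1-colour arrays, and analysed in GenomeStudio, per the series' design text and the submitters' processing notes. The deposited intensity values are on a linear scale, from 110.7 to 31938. How they were normalized, and with what background correction, the sources used here do not say. The sorted values of the 8 arrays differed by at most 0.0057 (log2), as quantile normalization leaves them, so differences are relative to the bulk of probes. The 16 columns of a second table match no sample label and were not used, so there is no detection p.

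The background level, 161.4, was the one-sided 0.01 point of a distribution with its mode at 139.7 and an SD of 0.0892 (log2), estimated from all values. Values were corrected with normexp (offset 16) and tested on the log2 scale with limma 3.58.1 (lmFit, eBayes; R 4.3.3). The model had 4 group means, 4 residual and 5.51 prior degrees of freedom. The fit held the 16729 probes with 1 gene symbol that exceeded background on at least 2 of 8 arrays. Fold changes and differences are JMJD3 over vector, and tumor-dissociated minus cultured. Of the probes 30113 had 1 symbol, 8 several and 17202 none listed, and 30074 matched the RefSeq table by Entrez identifier. With 2 arrays against 2 an exact permutation test reaches 0.333 at best. The p-values thus depend on the spread that limma pools over probes. The number of arrays limits the precision.

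The probes, the 26 gene lists and the tests were chosen with earlier results of these data known. Named genes are all called probes, the 12 genes of smallest p in each direction, and each list's called members or its largest difference. Other list members were named after their values were seen. The fit was tested on simulated data.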

Additional observations from a re-analysis of the deposited data

Results flagged for a closer look

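The 10 called probes are listed because the JMJD3 effect differed between tumor-dissociated and cultured cells by the test of that difference. The log2 difference of effects, tumor-dissociated minus cultured, was 2.46 for THBS1, 1.93 for SORBS2, 1.87 for OLFML2A and 1.57 for ZBTB38. It was -4.49 for UTS2, -3.72 and -3.27 for the 2 probes of SPP1, -2.42 for CXCL8, -2.28 for VAV3 and -1.78 for PBX3. Groups of 2 arrays are too small for a test of single outlying arrays.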

How the results depend on the processing

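The 10 called probes became 7 without background correction and 14 with a normexp offset of 50, which held 9 of the 10. A background level at the 0.05 point gave 12, no filter on dim probes 7 and 1 probe per gene 8. Robust moderation gave 9, and array weights per origin gave 10, of which 9 were among the 10 above. With the replicate number as a block 29 were called, the 10 among them. Differences between replicates 1 and 2 correlated positively across groups. The r was 0.40 between cultured JMJD3 and cultured vector cells, and 0.059 to 0.15 for the other pairs of groups. Whether arrays of 1 number share a source was not tested. The labels' numbers alone do not show that arrays were paired, and the block is given here only. The count ran from 0 to 64 when 1 array was left out, and was 9, of which 4 were among the 10, without tumor-dissociated vector replicate 2 and JMJD3 replicate 1 together. A fit that leaves a group with 1 array assumes that it varies like the other groups. Over 46 named probes and 19 alternatives the sign of the difference changed 3 times, all in uncalled probes. SPRR2D ran from -1.27 to 0.53 and LYZ from -0.022 to 1.22 with 1 array left out, and RFC3 was 0.16 without the 2 arrays. List medians were recomputed, after the data were seen, for the 9 lists whose median lay beyond the quartiles of all probes and that held at least 3 probes, and not for the others. Of these, 3 changed sign. HLA class II ran from -0.0445 to 2.42 and fibroblast markers from -0.45 to 0.0291 with 1 array left out, and mitosis genes stood at 0.0746 without the 2 arrays. The cause was not tested in these cases. Dim probes near 161.4 show smaller differences without background correction, which leaves the shared background in both groups.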
